A study of Solanum lycopersicum with 6 samples.

Results

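The cytochrome P450 genes of tomato fruit wall were examined in 36224 rows of a deposited gene table. A row was a member when its description contained "cytochrome P450" and its pathway annotation named none of 5 pathways (phenylpropanoid, flavonoid, cutin, suberine and wax, steroid and linolenic acid metabolism). This gave 211 members, of which 90 had enough counts to be tested, 38 had some counts but were too low to test and 83 had 0 counts in every library. By their descriptions 2 members are NADPH-cytochrome P450 reductases and 4 are named "like_TBP". Of the rest, described as P450s, Solyc04g079850.2 carries the symbol DA1 and Solyc04g054225.1 the symbol RE1, which name other proteins. Pericarp RNA was sequenced from wild-type (WT) plants of the cultivar Ailsa Craig and from transgenic lines of the same background that overexpress the histone demethylase JMJ6 (JMJ6-OE). All fruit were 37 days after anthesis, and each genotype had 3 libraries. The sources used here give neither the transgene's promoter nor the number of lines. Nothing in the labels ties replicates to separate plants, so a p-value here reflects only the spread between libraries.

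Cytochrome P450 enzymes are haem proteins, mostly anchored in the endoplasmic reticulum, that insert an oxygen atom into a substrate. They receive electrons from NADPH through P450 reductase, in some reactions with the help of cytochrome b5. Plant P450s are grouped into families, which are joined in clans; the large CYP71 clan holds many enzymes of specialised metabolism, while other clans hold enzymes that make or inactivate hormones, hydroxylate fatty acids for the cuticle or make carotenoids.

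The libraries held 28539410 to 36487547 counts, and members took 0.214% to 0.312% of them. The groups differed in ripening at the same age: 6 of 6 ripening genes were higher in JMJ6-OE, with a summed level of 1039 to 1576 CPM (counts scaled to a fixed library size of 1e+06) in WT and 13680 to 22480 CPM in JMJ6-OE, and a response to the demethylase cannot be told apart from a difference in ripening stage. Of 21 tested antenna protein genes of green tissue 15 were lower and 1 was higher, and all 26 rows of that list summed to 5106 to 6010 CPM in WT and 1626 to 2179 CPM in JMJ6-OE. Of 5 tested seed genes 1 was higher and 4 were not called, with a median log2 fold change of -0.12. All 25 rows of that list summed to 10.4 to 14.6 CPM in WT and 31.9 to 69.0 CPM in JMJ6-OE. The called gene, Solyc06g060840.1, stood at 4.13 to 7.42 CPM in WT and 24.77 to 61.95 CPM in JMJ6-OE. The rise in the sum thus lay in this 1 gene and not in the list as a whole. Over all tested genes 17.5% were called higher and 16.8% lower. Of 2 cuticle genes 1 was lower, and the other, Solyc02g085870.3, was not called (log2 fold change 0.69). Of 11 phloem genes 5 (45.5%) were higher and 3 (27.3%) lower, and of 6 xylem genes 0 were called. The part of any of these in the P450 results was not tested, and in whole tissue fewer cells of a type and less RNA per cell cannot be told apart. A row that may be JMJ6, Solyc06g008490.3, stood at 27.0, 23.5 and 25.5 CPM in WT and 31.5, 37.4 and 41.3 CPM in JMJ6-OE. It was called higher (log2 fold change 0.54 ± 0.12 SE, edgeR adjusted p = 0.014), in 4 of 6 fits that leave out a library. Its symbol is JMJ703 and its description names a putative lysine-specific demethylase JMJ16. Its identity as JMJ6 rests on its position on chromosome 6 and is uncertain, so the labels were not checked by the transgene's transcript.

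More P450 genes had less transcript in JMJ6-OE pericarp than had more. In edgeR's quasi-likelihood test, adjusted by Benjamini and Hochberg's method over all 20143 tested genes and called at 0.05, 27 of the 90 tested members (30%) were lower and 9 (10%) were higher, while 54 were not called. Over all tested genes 16.8% were called lower and 17.5% higher, 34.3% in all. Of the 90 tested members, 25 were called lower by at least 2-fold and 8 were called higher by at least 2-fold. Over all tested genes 8.97% and 5.77% were called so. At this size both shares of members lay above those of all genes, unlike the share of higher calls of any size. The median log2 fold change of tested members was -0.42, beside -0.01 over all tested genes. Every JMJ6-OE library lay below every WT library for 36 members (40%) and above for 11 (12.2%), where each direction held 25.7% of all genes. Of the lower members 5 had under 10 counts in every JMJ6-OE library, and of the higher members 1 had under 10 counts in every WT library. Such genes could pass the filter on low counts only through the group in which they were high, so the shares called are a description of the members that passed. Leaving out the reductase and like_TBP rows, 87 tested members held the same 27 lower and 9 higher calls. These counts were 20 to 30 lower and 8 to 13 higher, of 92 to 96 tested members, when any 1 library was left out. In those fits the shares over all genes moved as well, from 9.99% to 19.2% lower and from 9.9% to 20.2% higher.

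Most lower calls lay in the CYP71 and CYP72 clans, which held most of the tested members. Over all tested genes 16.8% were called lower and 17.5% higher. In the CYP71 clan 15 of 44 tested members (34.1%) were lower and 5 (11.4%) higher, with a median log2 fold change of -0.51. The CYP72 clan had 6 (31.6%) lower and 1 (5.26%) higher of 19, with a median of -0.26. In the CYP86 clan 3 of 9 (33.3%) were higher and 1 (11.1%) lower. In the CYP85 clan 1 of 3 was lower, and in the CYP97 clan 1 of 5 was lower. Of 6 tested members whose description gave no family with a known clan 3 were lower. Among these, Solyc05g055400.3 and Solyc09g098030.3 carry symbols of the CYP71 clan. The single CYP711 clan gene, both reductases and the 1 tested like_TBP row were not called.

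**Figure D1:**
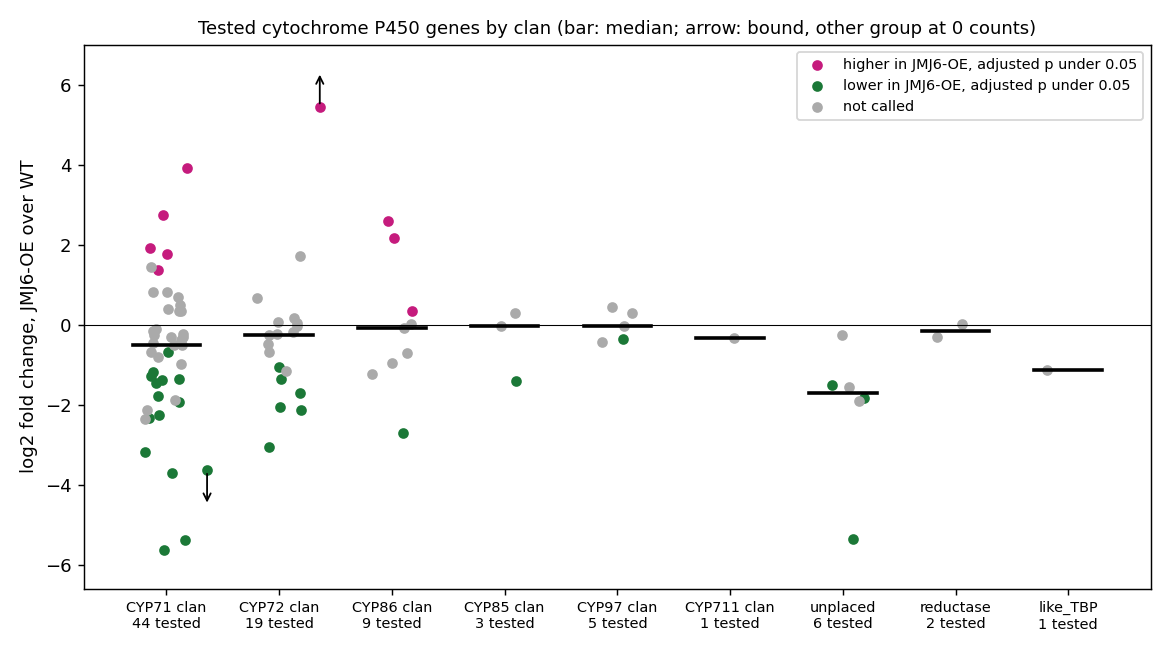
Log2 fold change of each of the 90 tested members, JMJ6-OE over WT, by clan; each point is a gene, coloured by its call, the bar is the clan's median, and an arrow marks a gene plotted at its bound because the other group had 0 counts. Lower calls outnumber higher ones in the CYP71 clan (15 and 5) and the CYP72 clan (6 and 1), and higher ones outnumber lower ones in the CYP86 clan (3 and 1).

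**Figure D2:**
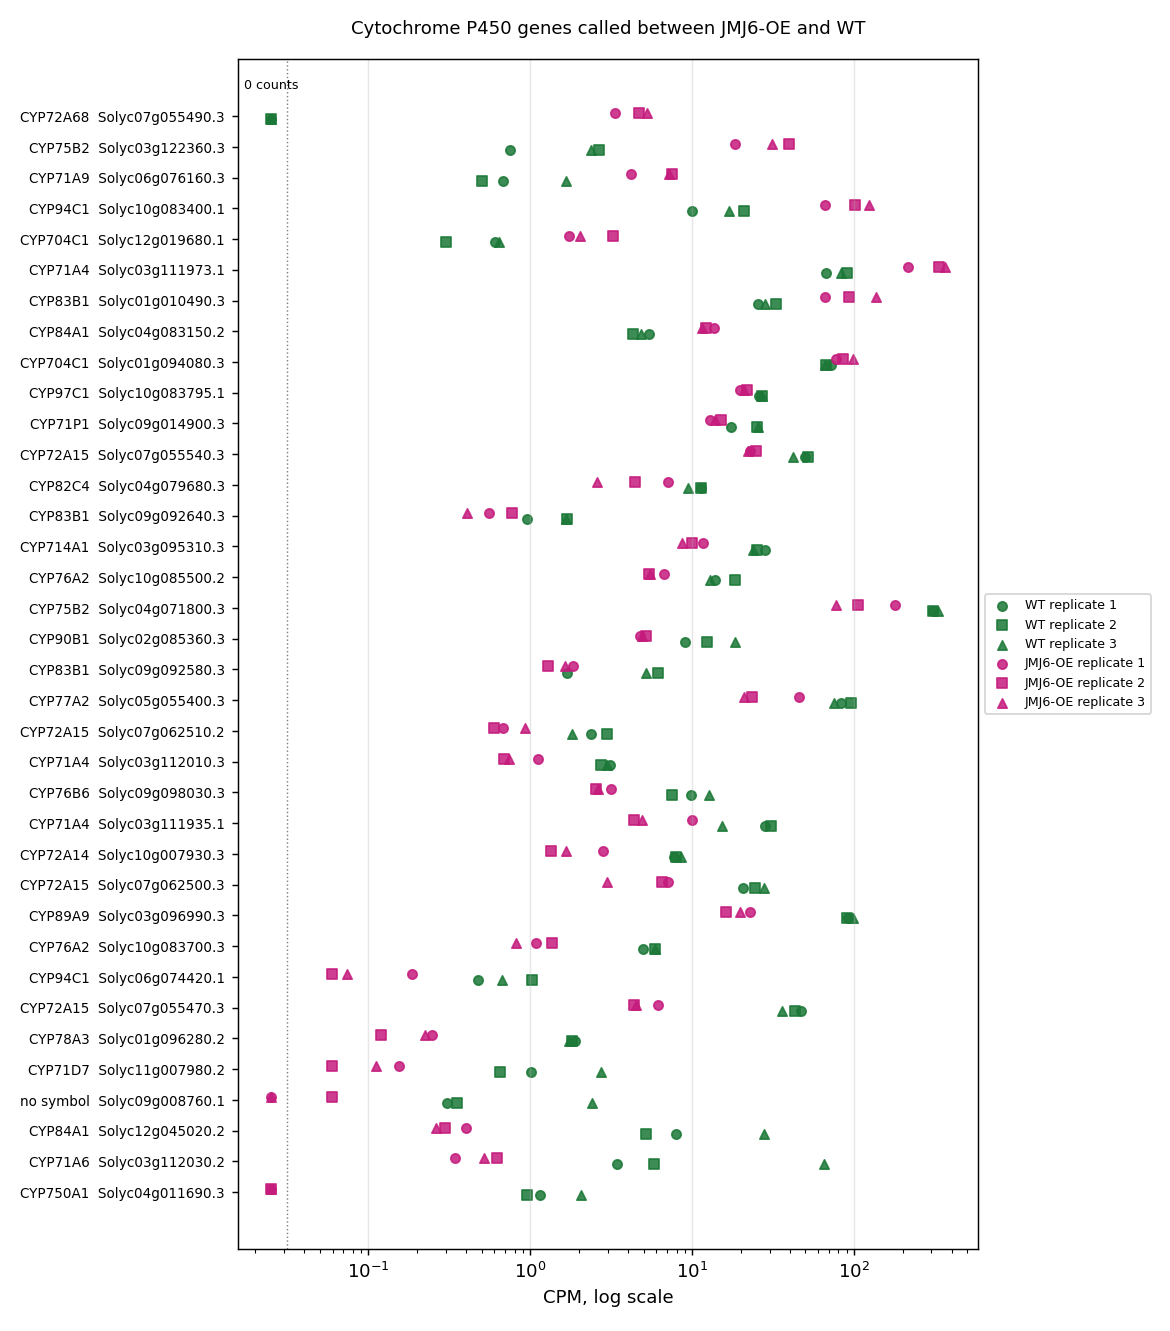
CPM of the 36 called members in each library on a log axis, with WT in green and JMJ6-OE in magenta and libraries with 0 counts at the left edge. The groups do not overlap in 35 of the 36 genes, and 2 genes have 0 counts in all libraries of 1 group.

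Few members carried most of the transcript of all members. On the length-corrected FPKM scale 30 members had a mean level of at least 10 over the 6 libraries, 35 lay from 1 to 10 and 63 lay above 0 and under 1. The 10 most abundant members, 2 of them reductases, held 51.6% of the summed level of all members. This is thus not a share of the P450s alone. The first was a CYP71A1-like gene (Solyc04g071800.3) at a mean of 86.7 FPKM, followed by the reductase ATR1 at 83.7 FPKM, a CYP82D47-like gene (Solyc04g079640.3) at 72.8 FPKM and the reductase CPR at 70.1 FPKM. The most abundant gene fell in JMJ6-OE from 122, 129 and 136 FPKM in WT to 69.2, 37.9 and 26.1 FPKM. In CPM it was 305, 306 and 330 in WT and 179, 106 and 76.7 in JMJ6-OE, that is, -1.38 ± 0.29 (SE) as a log2 fold change (adjusted p = 0.014). The JMJ6-OE libraries were all lower but differed among themselves more than the WT libraries did, and without JMJ6-OE replicate 2 the adjusted p was 0.057. Next in level were a CYP90A1 gene at 57.1 FPKM, a further CYP71A1-like gene (Solyc03g122350.3) at 56.0 FPKM and a CYP71A4-like gene (Solyc03g111973.1) at 55.7 FPKM. A CYP89A2-like gene (Solyc03g096980.1) averaged 48.4 FPKM, a CYP704C1-like gene (Solyc01g094080.3) 36.1 FPKM and a CYP94C1-like gene (Solyc10g083400.1) 35.7 FPKM. Of the 10, 3 were called higher and 1 lower, beside 17.5% and 16.8% of all tested genes.

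**Figure D3:**
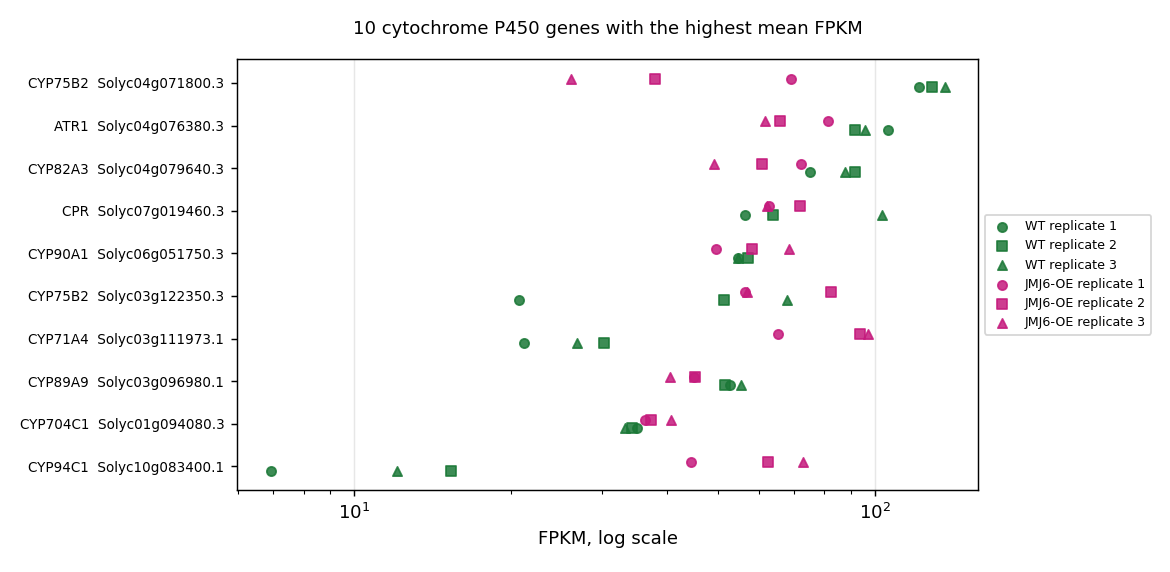
Deposited FPKM of the 10 most abundant members in each library on a log axis, with WT in green and JMJ6-OE in magenta. Solyc10g083400.1 and Solyc03g111973.1 lie higher in all JMJ6-OE libraries, Solyc04g071800.3 lies lower, and the reductase CPR overlaps between the groups.

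Transcripts of the proteins that pass electrons to P450s were counted as well. The reductase ATR1 (Solyc04g076380.3) stood at 305, 249 and 267 CPM in WT and 241, 211 and 208 CPM in JMJ6-OE, with a log2 fold change of -0.31 ± 0.11 and an adjusted p of 0.068. The reductase CPR (Solyc07g019460.3) stood at 148, 159 and 263 CPM and at 170, 212 and 191 CPM, a log2 fold change of 0.01 ± 0.22 (adjusted p = 0.98). Neither reductase was called, and WT replicate 3 alone was high for CPR. The electron partner list holds these reductases, cytochrome b5 and cytochrome b5 reductase. In it 6 of 14 tested genes (42.9%) rose and 0 fell, with a median log2 fold change of 0.45. Over all tested genes 17.5% were higher and 16.8% lower. The cytochrome b5 reductase CBR1 (Solyc10g081440.2) rose from 70.9 ± 3.25 to 132.5 ± 16.1 CPM (mean ± SD, n = 3), by 0.90 ± 0.11 on the log2 scale with an edgeR adjusted p of 0.0012. The cytochrome b5 gene CYTB5-E (Solyc06g053180.3) rose from 31.5 ± 0.512 to 57.0 ± 11.8 CPM (edgeR adjusted p = 0.0053), and CBR2 (Solyc05g018520.3) rose by 0.59 ± 0.11 on the log2 scale (adjusted p = 0.0065). These 3 calls held when any 1 library was left out. The cytochrome b5 genes CYB5 (Solyc01g096270.3, 0.60 ± 0.14), Solyc06g007930.3 (0.73 ± 0.19) and Solyc06g083440.3 (0.58 ± 0.18), both of the last named CYTB5-B, were also called. These calls were lost in 3, 4 and 5 of the 6 fits that leave out a library. CYB5 lost its call without WT replicate 2 or 3 or JMJ6-OE replicate 2 (adjusted p from 0.052 to 0.057). Solyc06g007930.3 lost it without WT replicate 1 or 2 or JMJ6-OE replicate 2 or 3 (0.078 to 0.091), and Solyc06g083440.3 without any of the libraries except JMJ6-OE replicate 3 (0.081 to 0.15) and with upper-quartile scaling (0.067).

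In the CYP71 family itself, taken by description, 4 of 17 tested genes (23.5%) rose and 6 (35.3%) fell, beside 17.5% and 16.8% of all genes. Its median log2 fold change was 0.35 while its mean was -0.27. The result depended on the annotation: by symbol, 2 of 14 tested CYP71 genes (14.3%) rose and 5 (35.7%) fell, with a median of -0.69. Solyc04g071800.3, Solyc03g122350.3 and Solyc03g122360.3, for example, are CYP71A1-like by description but carry the symbol CYP75B2. The CYP71A4-like gene Solyc03g111973.1 rose from 67.4, 90.9 and 82.6 CPM in WT to 215, 333 and 362 CPM in JMJ6-OE, 3.77-fold (log2 fold change 1.92 ± 0.22, adjusted p = 0.0011). The CYP71A1-like gene Solyc01g010490.3, whose symbol is CYP83B1, rose from 25.3, 32.7 and 28.2 CPM to 66.3, 92.4 and 136 CPM (1.77 ± 0.26, adjusted p = 0.0037). Both genes were well separated between the groups. The CYP71A1-like gene Solyc03g122360.3 was scarce in WT, at 0.744, 2.66 and 2.37 CPM, and reached 18.4, 39.4 and 31.2 CPM in JMJ6-OE, a log2 fold change of 3.92 ± 0.51 (adjusted p = 0.0027). Its neighbour Solyc03g122350.3, described alike, stood at 42.5, 99.3 and 134 CPM in WT and 119, 188 and 136 CPM in JMJ6-OE and was not called (0.69 ± 0.42, adjusted p = 0.25). In both genes WT replicate 1 was the lowest library, and the groups overlapped only in the second. The CYP71A9-like gene Solyc06g076160.3 rose from 0.676, 0.501 and 1.65 CPM to 4.18, 7.49 and 7.23 CPM (2.73 ± 0.48, adjusted p = 0.0055), and its log2 fold change was 3.38 without WT replicate 3.

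Among the CYP71 family genes that fell, the CYP71A3 gene Solyc03g112010.3 stood at 3.11, 2.73 and 2.96 CPM in WT and 1.12, 0.684 and 0.742 CPM in JMJ6-OE (-1.79 ± 0.28, adjusted p = 0.0033). The CYP71A4-like gene Solyc03g111935.1 fell from 28.1, 30.6 and 15.3 CPM to 9.98, 4.37 and 4.89 CPM (-1.94 ± 0.40, adjusted p = 0.013, or 0.051 without JMJ6-OE replicate 3). The CYP71D7 gene Solyc11g007980.2 stood at 1.01, 0.651 and 2.73 CPM in WT and at 0.155, 0.0595 and 0.111 CPM in JMJ6-OE (-3.72 ± 0.72, adjusted p = 0.0074). All libraries of these genes were lower in JMJ6-OE, but the last is rare and its log2 fold change was -2.93 without WT replicate 3. The CYP71A6-like gene Solyc03g112030.2 gave 3.42, 5.79 and 64.8 CPM in WT and 0.341, 0.624 and 0.519 CPM in JMJ6-OE (-5.63 ± 1.42, adjusted p = 0.027). WT replicate 3 was over 10 times the other WT libraries; without it the log2 fold change was -3.25 and the adjusted p 0.0037, whereas without JMJ6-OE replicate 1, 2 or 3 the adjusted p was 0.11, 0.086 or 0.098. The call was also lost with limma-voom (-4.55, adjusted p = 0.19) and with no filter beyond 1 count (adjusted p = 0.052). Solyc09g014900.3 has the symbol CYP71P1, in rice the name of tryptamine 5-hydroxylase, which makes serotonin. It fell from 17.4, 25.2 and 25.3 CPM to 12.9, 15.1 and 13.9 CPM (-0.70 ± 0.16, adjusted p = 0.016, or 0.052 without WT replicate 2).

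Other families of the CYP71 clan mostly held lower calls. A run of 3 CYP89A2-like genes all bear the symbol CYP89A9, which in Arabidopsis names an enzyme that oxidises products of chlorophyll breakdown. The shared symbol does not tell them apart. Of these, Solyc03g096990.3 fell from 92.1, 90.5 and 98.0 CPM to 22.9, 16.2 and 19.6 CPM, 4.78-fold (-2.26 ± 0.13, adjusted p = 9e-05). Its neighbour Solyc03g096980.1 had nearly the same WT level, at 77.7, 72.0 and 79.0 CPM, but stood at 68.7, 74.5 and 69.7 CPM in JMJ6-OE (-0.10 ± 0.08, adjusted p = 0.35). The pair were alike in WT and far apart in JMJ6-OE; the third gene of this run, Solyc03g096965.1, was not called (adjusted p = 0.48). The CYP76A2-like genes Solyc10g083700.3 and Solyc10g085500.2 fell by 2.34 ± 0.25 and 1.36 ± 0.18 on the log2 scale (adjusted p = 0.00074 and 0.0016). The first went from 4.94, 5.86 and 5.87 CPM to 1.08, 1.37 and 0.816 CPM and the second from 13.9, 18.2 and 12.9 CPM to 6.70, 5.44 and 5.45 CPM. Solyc01g096280.2, a CYP78A3-like gene of the family that in Arabidopsis includes KLUH, a promoter of organ growth, fell from 1.89, 1.80 and 1.73 CPM to 0.248, 0.119 and 0.222 CPM (-3.19 ± 0.37, adjusted p = 0.0011).

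Of 9 tested CYP736 genes 1 (11.1%) rose and 2 (22.2%) fell, beside 17.5% and 16.8% of all tested genes. Solyc04g083150.2 rose from 4.84 ± 0.551 to 12.4 ± 1.13 CPM (mean ± SD, n = 3; log2 fold change 1.36 ± 0.15, edgeR adjusted p = 0.00085). Solyc04g011690.3 stood at 1.15, 0.952 and 2.06 CPM in WT and had 0 counts in all JMJ6-OE libraries, at least 12.5-fold lower when set against a floor of 3 counts per library (0.111 CPM; edgeR adjusted p = 0.0026). Solyc12g045020.2 was at 7.88, 5.16 and 27.6 CPM in WT and 0.403, 0.297 and 0.260 CPM in JMJ6-OE (-5.38 ± 0.81, adjusted p = 0.0046, and -4.36 without WT replicate 3). In these genes the groups were separate, with WT replicate 3 highest in both that fell.

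The CYP82 and CYP83 calls depended on which libraries were used. The CYP82D47-like gene Solyc04g079680.3 had -1.18 ± 0.33 (adjusted p = 0.030), lost without WT replicate 1, 2 or 3 (0.084, 0.092 and 0.059) or JMJ6-OE replicate 2 (0.10). Its more abundant relative Solyc04g079640.3 stood at 75.3, 91.8 and 87.6 FPKM in WT and 72.3, 60.8 and 49.3 FPKM in JMJ6-OE and was not called (-0.30 ± 0.12, adjusted p = 0.084). In the CYP83 family 2 of 5 tested genes (40%) were lower, beside 16.8% of all tested genes. They were the CYP83B1-like Solyc09g092640.3 (-1.29 ± 0.39, adjusted p = 0.037) and Solyc09g092580.3 (-1.46 ± 0.46, adjusted p = 0.045). Both calls were lost when WT replicate 2, WT replicate 3 or any JMJ6-OE library was left out, with adjusted p from 0.057 to 0.12 for the first and 0.071 to 0.15 for the second. The second was also lost with limma-voom (adjusted p = 0.10). It was at 1.69, 6.11 and 5.15 CPM in WT and 1.83, 1.28 and 1.63 CPM in JMJ6-OE, the only called member whose groups overlapped.

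Many members lay close to other members in the order of the gene identifiers. Within 5 rows of each other there were 35 runs, which held 131 members, and 14 runs had at least 2 tested members. In 2 runs genes called higher and genes called lower stood side by side. Near-identical neighbours can share reads, and the sources used here do not say how such reads or the strand were treated, so values within a run may be partly split. On chromosome 3 a run of 14 CYP71A rows (Solyc03g111880.3 to Solyc03g112030.2) had 5 tested genes, 1 higher, 3 lower and 1 not called. Solyc03g111973.1 there rose from 26.1 ± 4.55 to 85.3 ± 17.5 FPKM (mean ± SD, n = 3), while Solyc03g111935.1 fell from 10.2 ± 3.43 to 2.37 ± 1.30 FPKM. The remaining 9 rows were at 0 or too low to test.

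The other mixed run lay on chromosome 7, with 11 CYP72A rows (Solyc07g055440.2 to Solyc07g055560.3) and 4 tested genes. Solyc07g055470.3, described as isoform X3 of CYP72A219, fell from 46.7, 42.8 and 35.9 CPM in WT to 6.17, 4.34 and 4.49 CPM in JMJ6-OE, 8.35-fold (-3.06 ± 0.18, adjusted p = 8.6e-05). Solyc07g055490.3, described as isoform X1 of CYP72A219, had 0 counts in all WT libraries and 3.32, 4.70 and 5.23 CPM in JMJ6-OE, at least 43.5-fold higher against 3 counts per library (0.101 CPM; adjusted p = 0.00042). These are separate rows that share a name by similarity. Solyc07g055540.3, which is also described as isoform X1 of CYP72A219, fell from 50.0, 51.6 and 41.9 CPM to 22.6, 24.9 and 22.0 CPM (-1.05 ± 0.11, adjusted p = 0.00073), and Solyc07g055530.3 was not called (0.06, adjusted p = 0.79).

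**Figure D4:**
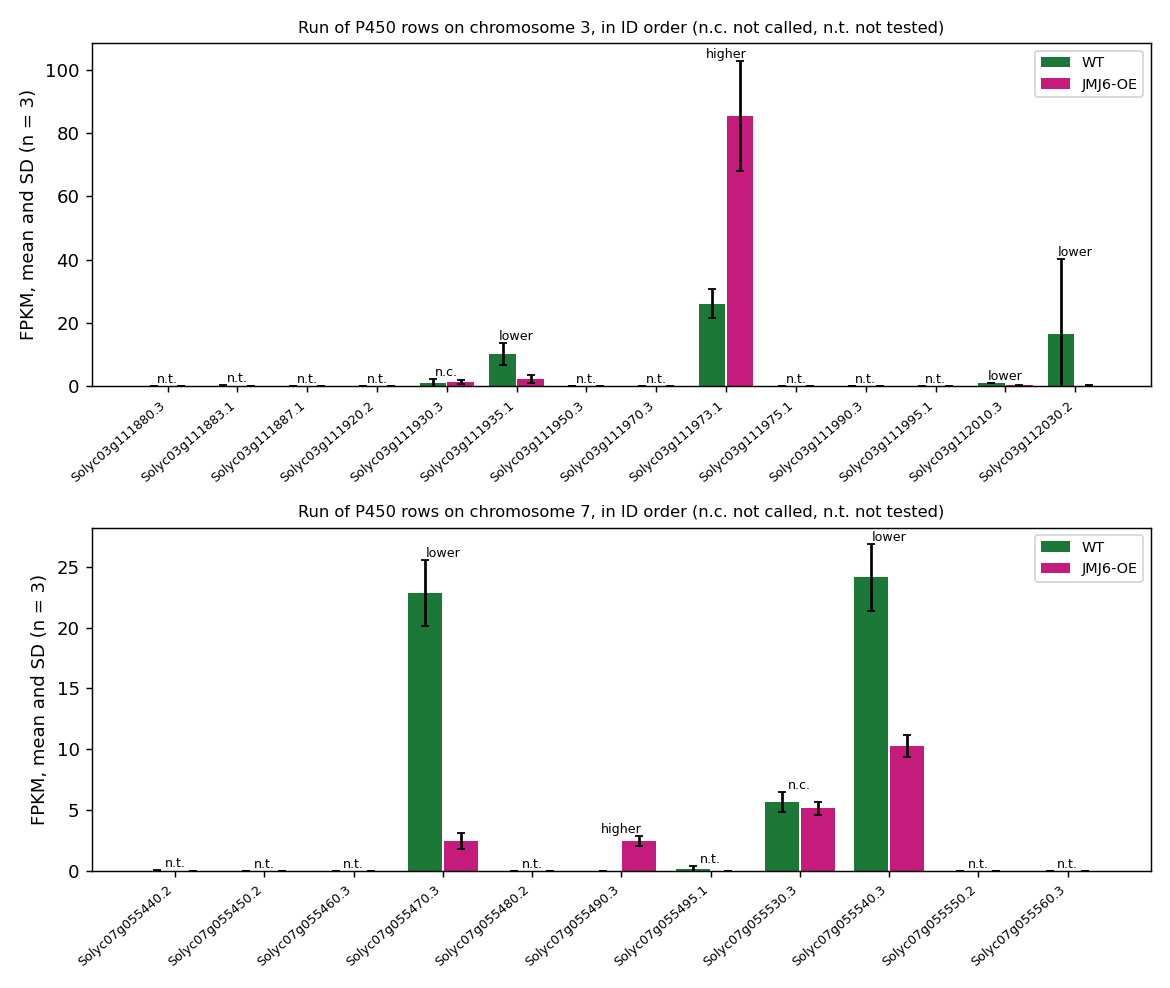
Deposited FPKM (mean and SD, n = 3) of every member in the chromosome 3 and chromosome 7 runs, in identifier order, with error bars cut at 0 and the call above each pair of bars. In each run a gene called higher stands among genes called lower, and most rows are near 0.

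The CYP72A family includes tomato enzymes of steroidal alkaloid synthesis and, in Catharanthus, secologanin synthase. Of its 14 tested genes 5 (35.7%) fell and 1 (7.14%) rose, beside 16.8% and 17.5% of all tested genes. A further chromosome 7 run of 3 rows held 2 lower genes. Solyc07g062500.3 went from 20.6, 24.3 and 27.6 CPM to 7.04, 6.54 and 2.97 CPM (-2.13 ± 0.31, adjusted p = 0.0032) and Solyc07g062510.2 from 2.37, 2.98 and 1.80 CPM to 0.682, 0.595 and 0.927 CPM (-1.70 ± 0.32, adjusted p = 0.0068). The third gene of that run, Solyc07g062520.3, was not called (0.03, adjusted p = 0.90). Solyc10g007930.3 fell from 7.68, 7.92 and 8.57 CPM to 2.82, 1.34 and 1.67 CPM (-2.05 ± 0.28, adjusted p = 0.0021). The JMJ6-OE libraries disagreed for Solyc07g043460.3, at 15.2, 33.4 and 1.45 CPM against 4.57, 4.66 and 6.10 CPM in WT, and it was not called (1.71 ± 0.93, adjusted p = 0.20).

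Hormone families were mixed. CYP90B3 (Solyc02g085360.3), in tomato a C-22 hydroxylase of brassinosteroid synthesis, fell from 9.06, 12.3 and 18.3 CPM to 4.77, 5.20 and 4.86 CPM, 2.68-fold (-1.42 ± 0.25, adjusted p = 0.0055). The JMJ6-OE values lay close together while the WT values spread over 2-fold. CYP90A1 (Solyc06g051750.3), which acts in brassinosteroid synthesis in Arabidopsis, stood at 90.7, 90.0 and 88.0 CPM and at 85.4, 108 and 133 CPM and was not called (0.28 ± 0.15, adjusted p = 0.19). The CYP734A1 gene Solyc04g080100.3, of the family that inactivates brassinosteroids in Arabidopsis, had 38.1, 36.5 and 34.7 CPM in WT and 28.3, 29.9 and 33.4 CPM in JMJ6-OE (-0.25 ± 0.10, adjusted p = 0.077). Its relative Solyc07g025370.3 was not called either (-0.18 ± 0.11, adjusted p = 0.24). The CYP85A3 row, of the last steps of brassinosteroid synthesis, had 0 counts in every library, and the rows described as CYP724B1 and CYP90D2 were too low to test.

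The CYP714A1-like gene Solyc03g095310.3, of a family that modifies gibberellins in Arabidopsis, fell from 28.1, 25.3 and 23.7 CPM to 11.7, 9.90 and 8.60 CPM (-1.35 ± 0.14, adjusted p = 0.00069). The CYP714C2-like gene Solyc01g088760.3 was not called (-0.24 ± 0.12, adjusted p = 0.16). Nor was the CYP711A1 gene Solyc08g062950.3, named as the Arabidopsis strigolactone enzyme MAX1, at 4.60, 5.86 and 5.15 CPM in WT and 3.81, 4.04 and 4.56 CPM in JMJ6-OE (-0.33 ± 0.18, adjusted p = 0.18). Thus 1 of these 3 was called.

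Among the members, the CYP94 family, whose CYP94B3 and CYP94C1 oxidise the active jasmonate conjugate in Arabidopsis, held a higher and a lower gene. The CYP94C1-like gene Solyc10g083400.1 rose from 9.98, 20.9 and 16.8 CPM to 66.4, 100 and 123 CPM, 6.05-fold (2.60 ± 0.34, adjusted p = 0.0027). The CYP94C1 gene Solyc06g074420.1 was rare, at 0.473, 1.03 and 0.669 CPM in WT and 0.186, 0.0595 and 0.0741 CPM in JMJ6-OE (-2.72 ± 0.59, adjusted p = 0.011). Its log2 fold change was -3.38 without JMJ6-OE replicate 1 and its adjusted p was 0.052 without JMJ6-OE replicate 2. The CYP94B3-like genes Solyc03g111280.1 (-0.71 ± 1.47, adjusted p = 0.74) and Solyc03g111290.1 (-0.96 ± 1.61, adjusted p = 0.68) were not called. WT replicate 3 decided their direction: Solyc03g111290.1 stood at 0.0676, 0 and 3.89 CPM in WT and 0.465, 0.386 and 1.22 CPM in JMJ6-OE, and without that library its log2 fold change was 4.32 (adjusted p = 0.041). Solyc03g111280.1 reached 3.49 without it. The CYP94A2 gene Solyc10g078280.3 was not called (-0.08 ± 0.32, adjusted p = 0.87). Further CYP94 rows were left out of the members by pathway. Of these the CYP94A1-like Solyc09g066150.1, at a mean of 178 FPKM, rose by 2.66 ± 0.19 on the log2 scale (edgeR adjusted p = 0.00019). Solyc07g006890.1 fell (-1.28 ± 0.30, adjusted p = 0.020), and Solyc04g018063.1 was not called (0.76 ± 0.38, adjusted p = 0.16).

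In the CYP86 clan 2 CYP704C1-like genes were also higher. Solyc12g019680.1 rose from 0.609, 0.301 and 0.644 CPM to 1.74, 3.24 and 2.04 CPM (2.18 ± 0.41, adjusted p = 0.0068). The abundant Solyc01g094080.3 stood at 72.0, 66.6 and 66.0 CPM in WT and 77.1, 85.7 and 98.1 CPM in JMJ6-OE, only 1.27-fold apart (0.35 ± 0.10, adjusted p = 0.037). This small difference lost its call without WT replicate 1, 2 or 3 (adjusted p = 0.057, 0.11 and 0.12) and without JMJ6-OE replicate 2 or 3 (both 0.10). The CYP86A22 gene Solyc08g081220.1, of the family that hydroxylates fatty acids for cutin, was not called (0.01 ± 0.52, adjusted p = 0.99).

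Of the CYP77 family, which oxidises cutin fatty acids in Arabidopsis, Solyc05g055400.3 was abundant and lower. Placed here by its symbol CYP77A2, since its description gives no usable family name, it fell from 83.4, 95.9 and 75.1 CPM to 45.4, 23.3 and 20.9 CPM (-1.50 ± 0.30, adjusted p = 0.012). The CYP77A20 gene Solyc11g007540.2 was not called (-0.98 ± 0.73, adjusted p = 0.34). Carotenoid ring hydroxylases of the CYP97 family lead to lutein. CYP97C11 (Solyc10g083795.1) stood at 25.7, 26.9 and 26.9 CPM in WT and 19.7, 21.8 and 21.0 CPM in JMJ6-OE (-0.35 ± 0.09, adjusted p = 0.022), a call lost without WT replicate 2 (0.052) or JMJ6-OE replicate 2 or 3 (0.059 and 0.057). CYP97A29 (Solyc04g051190.3) lay above WT in all JMJ6-OE libraries, at 33.6, 33.7 and 33.5 CPM against 37.2, 40.8 and 45.5 CPM, but was not called (0.29 ± 0.10, adjusted p = 0.052). The 2 hydroxylases thus had opposite signs, with 1 of them past the test. The CYP97B2 rows Solyc05g016330.3 (-0.05, adjusted p = 0.75), Solyc11g040222.1 (-0.44 ± 0.16, adjusted p = 0.067) and Solyc11g040224.1 (0.45, adjusted p = 0.47) were not called.

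Also lower was Solyc09g098030.3, whose symbol CYP76B6 names a geraniol hydroxylase in Catharanthus; it went from 9.87, 7.52 and 12.6 CPM to 3.16, 2.56 and 2.63 CPM (-1.84 ± 0.23, adjusted p = 0.0013). Solyc09g008760.1, described as cytochrome P450 556A1, was at 0.304, 0.351 and 2.39 CPM in WT and at 0, 0.0595 and 0 CPM in JMJ6-OE (adjusted p = 0.022). Its adjusted p was 0.054, 0.076 and 0.075 without JMJ6-OE replicate 1, 2 or 3, and its log2 fold change of -5.36 was -3.76 without WT replicate 3 and -8.10 without JMJ6-OE replicate 2.

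WT replicate 3 stood apart in the P450 genes. It lay over 2-fold above both other WT libraries in 13 of the 90 tested members (14.4%), against 2.03% of all tested genes. JMJ6-OE replicate 1 lay as far above the other JMJ6-OE libraries in 10 members (11.1%, against 2.86% of all genes), and each remaining library in 0 to 3. Below both others of their group by over 2-fold lay WT replicate 1 in 7 members (7.78%, against 2.73% of all genes), WT replicate 2 in 5 (5.56%, against 1.05%) and JMJ6-OE replicate 3 in 7 (7.78%, against 3.58%), and each remaining library in 0 to 2. Among the 10 were the uncalled CYP736A12-like genes Solyc04g054257.1, at 22.0, 8.92 and 2.34 CPM in JMJ6-OE, and Solyc00g247300.3, at 15.0, 4.82 and 1.37 CPM. Of the 13 members high in WT replicate 3, 5 were called: Solyc12g045020.2, Solyc03g112030.2, Solyc11g007980.2 and Solyc09g008760.1 as lower and Solyc06g076160.3 as higher. Without this library 24 members were lower, all among the 27, and 10 were higher. What set these libraries apart was not tested.

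**Figure D5:**
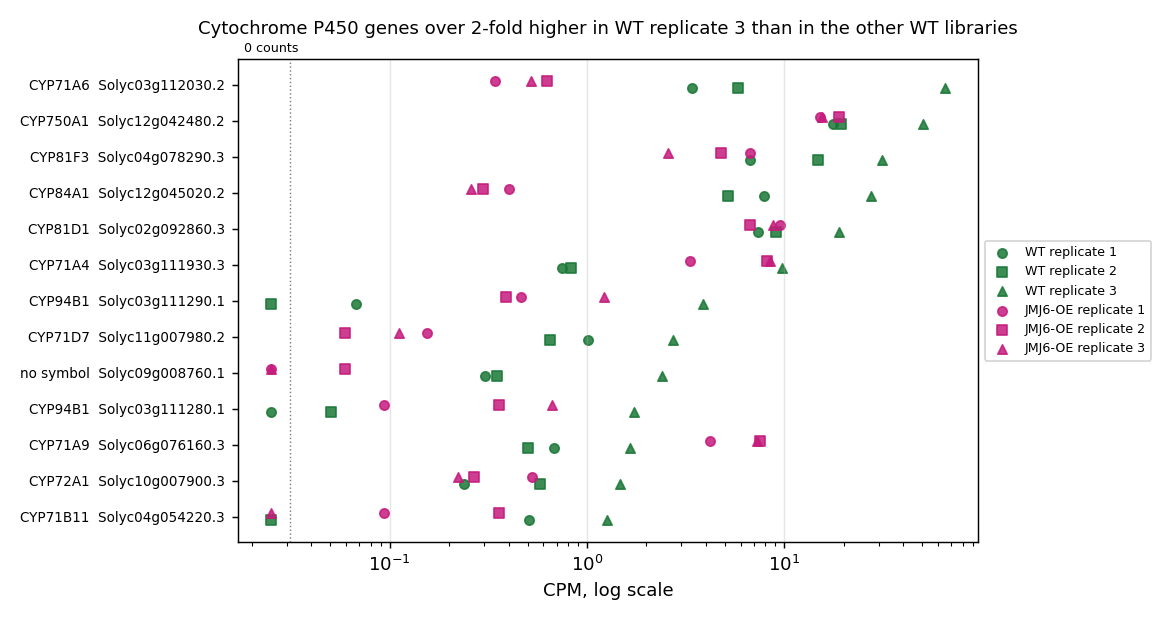
CPM on a log axis of the 13 members that lay over 2-fold higher in WT replicate 3 (green triangle) than in WT replicates 1 and 2, with JMJ6-OE in magenta and 0 counts at the left edge. For Solyc03g112030.2 the triangle stands at 64.8 CPM, against 3.42 and 5.79 CPM in the other WT libraries.

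The 38 members with counts but no test held 1 to 276 counts over all libraries, with a median of 10. The highest was the CYP71D7 row Solyc06g066230.3, with 3, 28 and 240 counts in WT and 3, 2 and 0 in JMJ6-OE, again high in WT replicate 3. The CYP94B3-like row Solyc03g111300.1, next to the tested CYP94B3-like genes, had 0, 4 and 122 counts in WT and 6, 4 and 22 in JMJ6-OE. Of the 22 P450 rows that the 5 excluded pathways held, 11 were tested, with a median log2 fold change of 0.67. Of these 4 (36.4%) were higher and 4 (36.4%) lower, beside 17.5% and 16.8% of all tested genes. The difference between these rows and the members was not tested.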

How the data were processed

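Pericarp mRNA of 3 WT and 3 JMJ6-OE libraries was sequenced, and samples were grouped by their titles. The submitters' processing notes name HISAT2. The sources used here do not give its version, the counter, the genome build, the annotation or the use of strand. Per the file headers, the table deposited by the authors holds a raw count and an FPKM for every gene in each library; the authors' log2 fold change and p-value columns were not used. It held 0 columns of other samples. Counts were tested as deposited. The authors' FPKM, which is not rescaled between libraries, served for levels between genes.

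Genes passing filterByExpr (minimum count 10) were scaled by TMM and tested in edgeR 4.0.16 (R 4.3.3) by the robust quasi-likelihood method, with genotype as the model and Benjamini-Hochberg adjustment over all 20143 genes at 0.05. CPM uses TMM-scaled library sizes; standard errors (SE) are the absolute log2 fold change over the root of F. A count floor of 3 is 0.0752 to 0.111 CPM and covers counting error only. The common biological coefficient of variation was 0.21. Replicates differed by 19.4 to 74.4 times sampling noise in a chi-square per degree of freedom, so none was treated as a copy.

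Clans were taken from the family number in the description; the clan by symbol matched in 190 of 190 members with both. The text names the 10 highest by FPKM, up to 6 called per clan and direction, genes at 0 in 1 group only, tested hormone, cutin and carotenoid families, reductases, called electron partners and called neighbours within 5 rows. Other genes named were chosen after their values were seen. The members and lists were chosen with earlier results of these data known. Cytochrome b561 rows, other proteins, were removed from the electron partners after the files were seen. Of 8 tested b561 rows 1 (12.5%) was higher and 3 (37.5%) were lower, beside 17.5% and 16.8% of all tested genes. Identifiers were not paired with the reference gene table, so no sequences are given. As alternatives, scaling (RLE, upper-quartile), the test (limma-voom with limma 3.58.1, DESeq2 1.42.0), the filter (2 others), a replicate block and leaving out each library were tried. The fit was tested on simulated counts. It recovered 11.9% of 1.5-fold, 67.2% of 2-fold and 92.4% of 4-fold changes, with 8 false calls among 19894 tested genes. Changes of 1.5-fold were thus mostly missed. Figures were drawn with matplotlib 3.10.9.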

Additional observations from a re-analysis of the deposited data

How the results depend on the processing

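The counts of called members stayed within 1.5 times of 9 higher and 27 lower under every alternative, but the numbers tested and the shares over all genes moved. Over all genes 9.9% to 20.2% were higher and 9.99% to 19.3% lower across these fits. RLE scaling gave 9 and 27, upper-quartile scaling 9 and 30, DESeq2 11 and 31 and limma-voom 10 and 27. No filter beyond 1 count gave 10 and 26 of 128 tested members. A filter of 1 CPM in 3 libraries, which left 4 of the called members untested, gave 9 and 23 of 74. Leaving out a library gave 8 to 13 higher (13 without JMJ6-OE replicate 1) and 20 to 30 lower (20 without JMJ6-OE replicate 2). Of the 36 called members, 25 kept their call in all 6 of these fits and 24 in every fit. With the replicate number as a block, 10 were higher and 25 lower; Solyc01g094080.3 (adjusted p = 0.073), Solyc09g092640.3 (0.065), Solyc09g092580.3 (0.11) and the electron partner Solyc06g083440.3 (0.069) were not called. No pairing of the libraries by number was seen: same-numbered deviations correlated at 0.094, 0.078 and -0.082, and not every library correlated best with its own number. With 3 libraries per group such small values cannot exclude a pairing. The sign turned in 6 named genes, none called in the main result. Solyc03g111280.1 gave 1.12 with limma-voom, 0.50 with the block and -1.40 to 3.49 when a library was left out, and Solyc03g111290.1 gave 1.88, 0.88 and -1.64 to 4.32; the highest values were those without WT replicate 3, where the second was called. CPR gave -0.05 with upper-quartile scaling, 0.00 with the 1 CPM filter and -0.18 to 0.27 when a library was left out. CYP86A22 gave -0.03 with upper-quartile scaling, -0.08 with limma-voom, -0.13 with the block and -0.71 to 0.34 when a library was left out. In those fits Solyc05g016330.3 gave -0.14 to 0.02 and Solyc10g078280.3 -0.42 to 0.15. The cause was not tested. With no filter beyond 1 count, all 128 members with a count were tested.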
